A study of Capra hircus with 24 samples.

Results

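Milk fat globule RNA of 2 dairy goat breeds was compared, with the 4 arrays of Polish White Improved goats (PWI) set against the 4 arrays of Polish Fawn Improved goats (PFI), which are 8 of the 24 arrays of the study. The members were chosen by source and breed as the labels give them, with no use of measured values, though earlier results of these data were known. The goats were healthy females in their 3rd lactation, each goat gave 1 milk fat globule sample, and no group was treated. By the goat numbers in the sample titles, the same 8 goats also gave milk somatic cells (MSC) and nuclear cells of peripheral blood (PNCB). These are used here only to set the milk fat globule (MFG) differences beside them. On every array the goat's RNA was labelled with Cy5 and a common reference with Cy3, and the reference was a blood RNA pool of 7 other goats in their 4th lactation, 4 PWI and 3 PFI. A value is the log2 ratio of the sample to that reference, so a difference of 1 between breeds is a 2-fold difference. Each breed's 4 MFG arrays share a slide of their own, and an effect of the slide cannot be told apart from one of the breed. The same holds for each breed's MSC and PNCB arrays, with 6 slides for the 6 groups.

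A milk fat globule is a lipid droplet released by the secretory epithelial cell of the mammary gland. As it buds from the apical surface it is wrapped in plasma membrane and can trap a crescent of cytoplasm, and the RNA in that crescent is used as a noninvasive sample of the milk-secreting cell. Such RNA is known for transcripts of caseins, whey proteins and the enzymes and membrane proteins of milk fat secretion. The array was designed for cattle and pairs each probe with a cattle transcript accession but with no gene symbol, and no accession matched the goat gene table provided. Genes are therefore given by probe and accession, and the defining markers of secretory epithelium or of blood and milk leukocytes could not be read to check the label of the samples.

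The MFG arrays of PWI goats 2 and 4 stood apart from the rest. Of the 43653 probes, the percentage flagged by the scanner software as well above background in Cy5 was 47.2%, 84.6%, 49.0% and 75.3% in PWI goats 1 to 4 and 44.1%, 45.8%, 51.5% and 46.6% in PFI goats 1 to 4. PWI goats 2 and 4 had higher shares than the other 6. In Cy3, the channel of the shared reference, the share was likewise high for these goats, at 88.0% in PWI goat 2 and 71.5% in PWI goat 4 against 53.4% to 57.1% on the other arrays. The slope of observed on expected log ratios of the spike-in controls was 0.489 in PWI goat 2 and 0.758 in PWI goat 4, and lay between 0.837 and 0.887 in the rest. The slope of an array's log2 ratios on the mean of the other 7 was 1.01, 0.745, 1.02 and 0.932 in PWI and 1.08, 1.07, 1.05 and 1.04 in PFI. All PWI slopes lay below all PFI slopes, with an exact two-sided permutation p of 0.0286, the smallest that 70 splits allow, and 0.129 after adjustment over 9 array measures. The SD of the log2 ratios over probes was 1.30 ± 0.08 in PWI and 1.42 ± 0.03 in PFI (SD, n = 4 each, exact permutation p = 0.0286, adjusted 0.129). The median SD of a probe between goats was 0.36 in PWI and 0.17 in PFI, and 0.18 in PWI without goat 2.

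**Figure D1:**
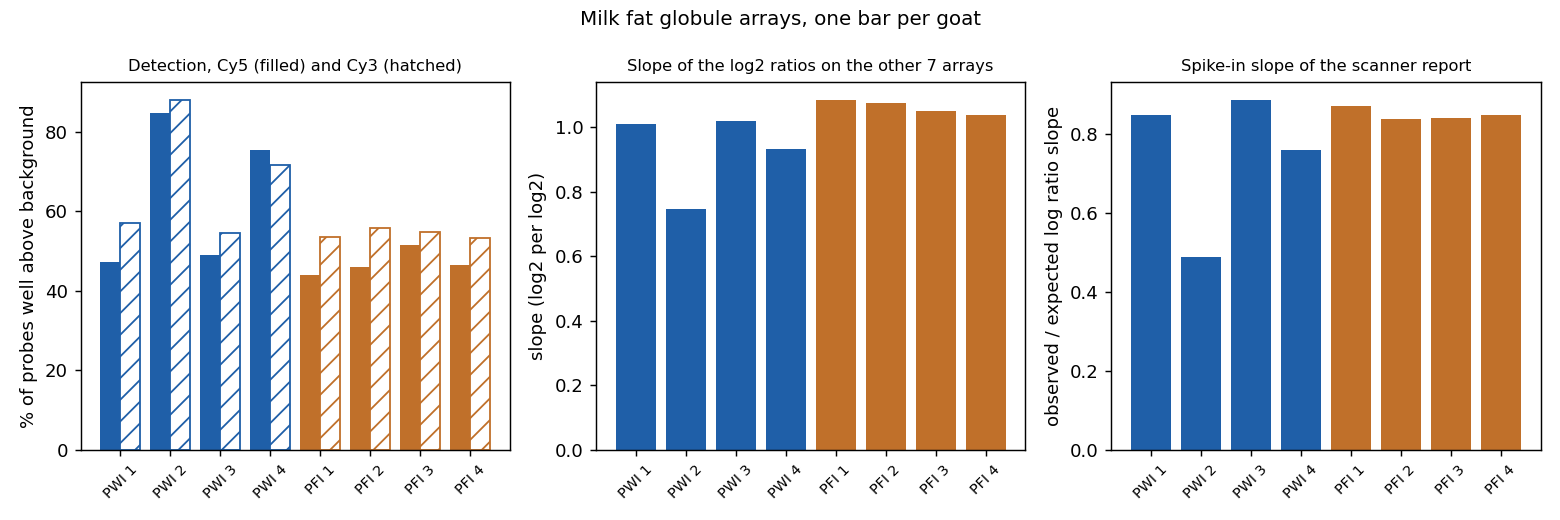
Measures of the 8 milk fat globule arrays, one bar per goat, blue for PWI and orange for PFI: the percentage of probes well above background in Cy5 and Cy3, the slope of the log2 ratios on the mean of the other 7 arrays, and the slope of observed on expected spike-in log ratios. PWI goat 2 has the highest shares, 84.6% and 88.0%, and the lowest slopes, 0.745 and 0.489.

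The main question was which transcripts in milk fat globules differed between the breeds. Of 27313 probes tested, 4 passed the threshold of 0.05 on the Benjamini-Hochberg adjusted p of limma, which is 0.0146% of those tested. One accession, NM_206843, was higher in PWI through 1 probe (0.00366% of probes tested), and accessions NM_001079789 and X64897 were lower in PWI through 3 probes (0.011%). The log2 differences were 3.15 on the higher side and -2.76 to -2.14 on the lower. Their size moved with the processing, with the background fitted on all spots giving the smaller and the scanner's ratios the larger values, 2.75 and 4.43 for A_73_107408, -1.79 and -6.44 for A_73_P096351, -1.29 and -4.71 for A_73_P261821 and -1.87 and -4.88 for A_73_P118486. The 3 lower probes were well above background on only 2 of 4 PWI arrays, and they passed the filter on dim probes only through PFI groups, where they are high. At an unadjusted p under 0.05, 474 probes (1.74%) were higher and 1871 (6.85%) lower in PWI, together 8.59% of all. The median difference over all tested probes was -0.13 on the log2 scale, and -0.052 without PWI goat 2. In pooled globule RNA, a different share of globules that carry cytoplasm and a different transcript level within it cannot be told apart. Without PWI goat 2, 28 of 27203 probes tested were called, 13 higher and 15 lower, among them all 4. Where the background was fitted on all spots, with those that the scanner flagged as outliers included, none was called, with 653 at an unadjusted p under 0.05. The share of the unadjusted differences that were higher in PWI was 20.2%, and it was 43.4% with the scanner's processed ratios and 36.0% with each array centred on its median.

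**Figure D2:**
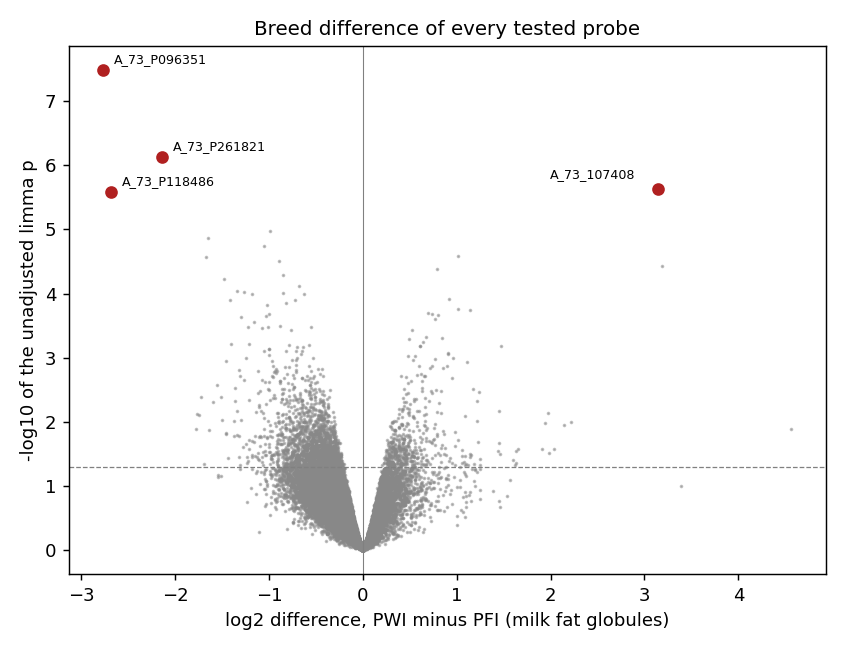
Difference in log2 ratio between PWI and PFI milk fat globules (x axis) against -log10 of the unadjusted limma p (y axis), one point for each of the 27313 probes tested. The 4 called probes are red and labelled, 3 on the lower side and 1 on the higher side, the dashed line marks an unadjusted p of 0.05, and more of the grey points above it lie left of 0 (1871 against 474).

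The probe higher in PWI was A_73_107408 for NM_206843. Its log2 ratios were 2.76, 1.36, 2.30 and 2.04 in PWI goats 1 to 4 and -0.87, -0.72, -1.45 and -1.09 in PFI goats 1 to 4. Every PWI goat lay above every PFI goat, and the lowest PWI value, that of goat 2, was still more than 2 log2 units above the highest PFI value. The difference was 3.15 (SE 0.29), with a limma adjusted p of 0.0177 and a 95% interval of 2.49 to 3.80. In net Cy5 intensity, which is spot median minus local background, the probe read 1474, 1706.5, 1016 and 1406 in PWI and 32, 65, 34.5 and 35 in PFI. Both channels were well above background on each of the 8 arrays. In Cy3 the net reference signal was 604 in PWI goat 2 and lay between 280 and 340 on the other 7 arrays. The Cy5 signals in PFI were dim, and the offset added by the background correction bears on their ratios. The interval therefore does not bound the breed difference in RNA for this probe either. The difference was 4.08 with Cy5 alone and 4.43 with the scanner's processed ratios, both above the interval. With the background fitted on all spots it was 2.75, inside the interval. The call was lost without PWI goat 3 or 4 or any one PFI goat, with limma adjusted p between 0.0738 and 0.120, while the difference stayed between 3.01 and 3.25.

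NM_206843 has a 2nd probe, A_73_P437651, and its values did not separate the breeds. They were -2.52, -1.99, -2.34 and -2.40 in PWI and -2.18, -2.31, -2.63 and -2.23 in PFI. The groups overlapped, and the difference was 0.03 (SE 0.15, limma adjusted p = 0.939, 95% interval -0.32 to 0.37). In net Cy5 this probe read 35.5, 369, 29 and 76.5 in PWI and 21, 32, 31 and 36 in PFI. Net Cy3 lay between 635.5 and 906. The offset added by the background correction pulls the ratios of such dim Cy5 signals together. The interval therefore does not bound the breed difference in RNA for this probe. The 2 probes of this accession gave different results in MFG, where dim Cy5 limits what the second can show. The sign of the second changed with the scaling, to -0.058 with Cy5 alone and -0.30 with ratios scaled to a common slope. With an array designed for cattle and no probe sequences at hand, which stretch of the goat transcript each probe reads was not examined.

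NM_001079789 was lower in PWI by all 3 of its probes, 2 of them called. For probe A_73_P096351 the log2 ratios were 0.02, 0.15, 0.05 and 0.20 in PWI and 2.53, 2.94, 3.23 and 2.79 in PFI. All 4 PFI goats lay far above all 4 PWI goats. A ratio near 0 in PWI goats 1 and 3 is one of a dim Cy5 signal to a dim reference, each raised by the offset of 50 that the background correction adds, and gives no level relative to the reference. The difference was -2.76 (SE 0.15) with a limma adjusted p of 0.000895, and the probe was still called when any 1 of the 8 goats was left out. No fold is given for this accession because its size rests on the offset. Probe A_73_P261821 read -0.02, 0.49, -0.15 and 0.32 in PWI and 2.06, 2.29, 2.54 and 2.30 in PFI. Its groups did not overlap either, with a difference of -2.14 (SE 0.17) and a limma adjusted p of 0.0101. Its call was lost without PFI goat 2, 3 or 4, with limma adjusted p of 0.0657 to 0.100. The third probe, A_73_117639, read 0.07, 0.27, -0.25 and 0.30 in PWI and 1.20, 1.65, 2.05 and 1.39 in PFI. The breeds were again apart, and the difference of -1.48 (SE 0.20) missed the threshold at a limma adjusted p of 0.115. In all 3 probes PFI goat 3 was the highest and PFI goat 1 the lowest of its breed.

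The net intensities of NM_001079789 show how close the PWI values lay to background. In Cy5, A_73_P096351 read 6.5, 431, 10 and 64.5 in PWI goats 1 to 4 and 164.5, 293, 458.5 and 258 in PFI goats 1 to 4. The signal was well above background on all 4 PFI arrays, but in PWI only on those of goats 2 and 4, which was so for all 3 probes of the accession. In Cy3 the same probe read 40.5, 205, 45 and 69.5 in PWI and 48, 51, 55.5 and 57.5 in PFI. In PWI goat 2 the Cy5 signal was thus within the PFI range, and the reference channel of that array was the brightest of the 8. For the other probes of the accession the net Cy5 of PWI goat 2 lay above every PFI goat, at 832.5 against 126.5 to 351 for A_73_P261821 and 718.5 against 61 to 162.5 for A_73_117639, with net Cy3 of 346 and 331.5 in that goat. In Cy5 intensity the breeds therefore overlapped for all 3 probes, and they did not in the ratios. The reference was well above background on only 2 of the 8 arrays for this probe, and on 4 and 2 for A_73_P261821 and A_73_117639. With Cy5 alone, without the reference, the differences were -2.87, -1.59 and -0.90, and none was called, with limma adjusted p of 0.0720, 0.549 and 0.552.

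X64897 was lower in PWI by its only probe, A_73_P118486. The log2 ratios were -0.23, 0.43, -0.46 and -0.92 in PWI and 2.39, 2.47, 2.32 and 2.37 in PFI. The PFI goats agreed closely, with a mean of 2.39 ± 0.06 (SD, n = 4), while the PWI goats spread around -0.30 ± 0.56 (SD, n = 4), and the groups did not overlap. The difference was -2.68 (SE 0.25) with a limma adjusted p of 0.0177, and no fold is given because the offset bears on the dim PWI values here too. In net Cy5 the probe read 26, 474.5, 12.5 and 37.5 in PWI and 317, 371, 456 and 285 in PFI, and it was well above background in PWI goats 1 and 2 only. In net Cy3 it read 186 in PWI goat 2 and between 90.5 and 121 on the other arrays. The call was lost without PWI goat 1 or 3 or any one PFI goat, with limma adjusted p between 0.0693 and 0.118. Restricted to probes well above background on all 8 MFG arrays, only A_73_107408 was left among the 4 and was called.

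**Figure D3:**
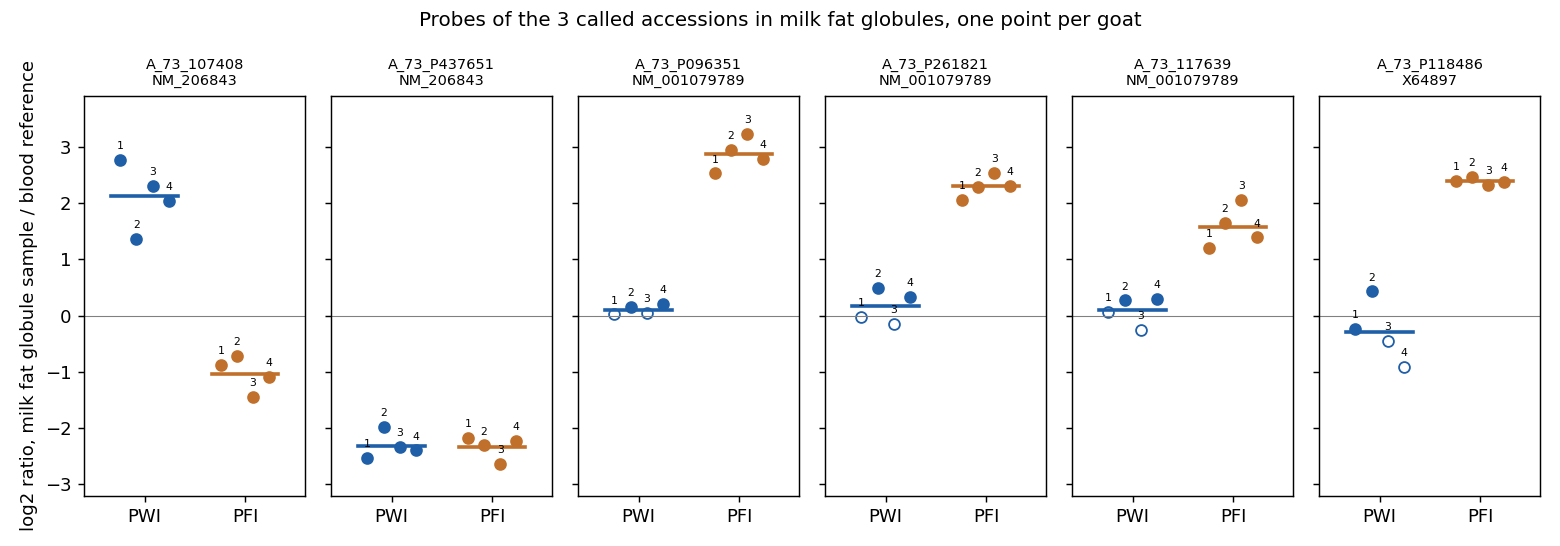
Log2 ratio of the milk fat globule sample to the blood reference for the 6 probes of the 3 called accessions, one numbered point per goat and a line at each breed's mean. Filled points were well above background in Cy5 and open points were not. For the probes of NM_001079789 and X64897 every PFI goat lies above every PWI goat, for A_73_107408 every PWI goat lies above every PFI goat, and for A_73_P437651 the breeds overlap. A_73_P437651 and A_73_117639 were not called.

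The same goats' other RNA sources gave a different picture for each accession. For A_73_107408 every measured PWI goat lay above every PFI goat in all 3 sources. In milk somatic cells it read 1.38, 1.54, 1.95 and 2.34 in PWI and -0.19, -0.80, -0.22 and -1.17 in PFI, a difference of 2.39 (SE 0.28) with groups that did not overlap but a limma adjusted p of 0.3004. In blood it read 0.68, 0.75 and 1.03 in PWI goats 1 to 3, with goat 4 left out for a flagged spot, and -1.52, -1.69, -1.98 and -1.97 in PFI, a difference of 2.61 (SE 0.18, limma adjusted p = 0.00196). A test of the difference between sources gave a limma adjusted p of 0.903 for MFG against milk somatic cells and 0.598 for MFG against blood. In milk somatic cells and blood too, each breed lay on a slide of its own, so breed and slide cannot be told apart by these values. The second probe of NM_206843 differed by -0.19 and 0.30 in these sources, and its groups overlapped in both. In blood its net Cy5 lay between 435.5 and 2561 and was not dim, and the 2 probes gave different results there too. Why they differ was not tested.

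For NM_001079789 the fawn goats were not alike in milk somatic cells. Probe A_73_P096351 read -0.01, 0.80, 1.20 and 1.63 in PFI goats 1 to 4 and between -0.18 and 0.10 in PWI. PFI goat 1 lay within the PWI range, while the MFG value under the same goat number was 2.53. PFI goat 1 was also the lowest PFI goat for A_73_P261821 and A_73_117639, at -0.02 and -0.06, but there it lay above the highest PWI values of -0.13 and -0.09, so the breeds did not overlap for these probes. None of these values in PFI goat 1 and in PWI was well above background. The breed differences in milk somatic cells were -0.96, -1.04 and -0.56 for the 3 probes, each with a limma adjusted p of 0.988. In blood none of the 3 probes was well above background on any array, and the breed differences were -0.41, 0.11 and -0.13. The test of MFG against blood gave -2.25 (SE 0.32, limma adjusted p = 0.00437) for A_73_P261821, with 1 PWI blood value left out for a flag and no blood signal well above background, and adjusted p of 0.116 and 0.131 for the other two. Against milk somatic cells each had a limma adjusted p of 0.903. X64897 differed by -0.65 in milk somatic cells and -0.59 in blood, with overlapping groups, and its limma adjusted p for a different breed effect in MFG was 0.844 against milk somatic cells and 0.164 against blood.

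**Figure D4:**
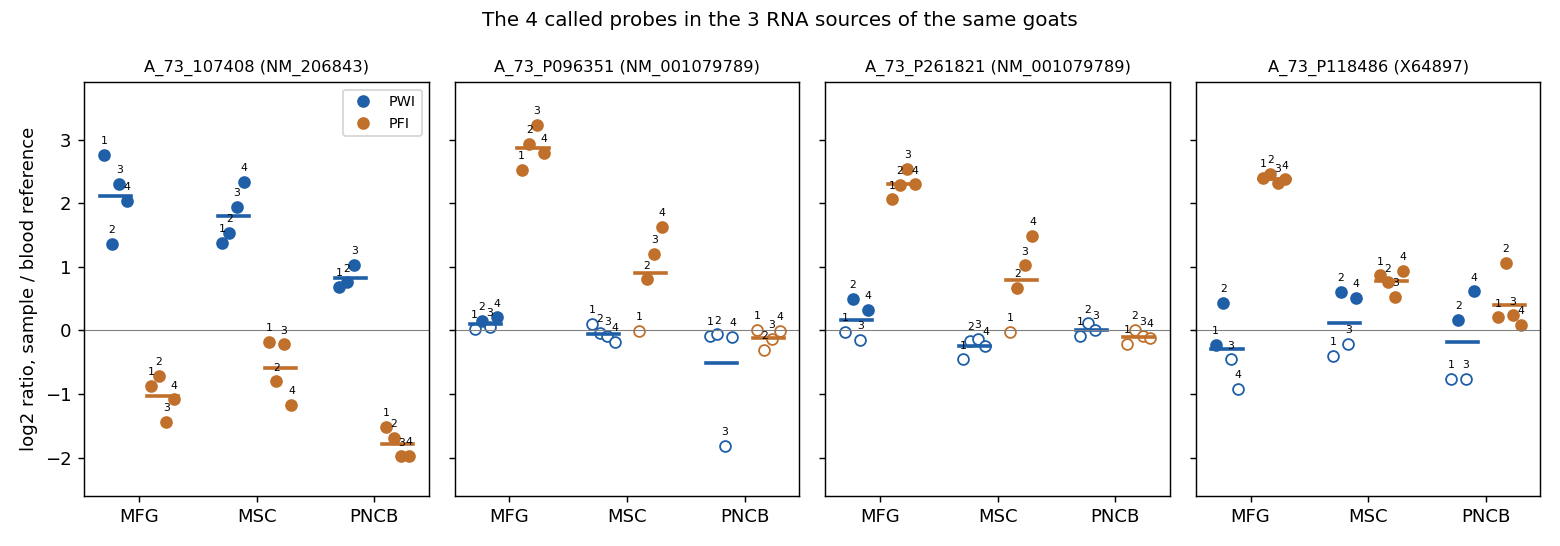
Log2 ratio to the blood reference of the 4 called probes in milk fat globules (MFG), milk somatic cells (MSC) and blood nuclear cells (PNCB), one numbered point per goat, PWI blue and PFI orange, with a line at each group mean; open points were not well above background in Cy5. For A_73_107408 the PWI points lie above the PFI points in all 3 sources, and the other 3 are furthest apart in MFG.

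Over all probes, the test of MFG against milk somatic cells called 0 of 27258 in limma, and 1162 (4.26%) had an unadjusted p under 0.05. The test against blood called 3 (0.011%), with 2797 (10.3%) at an unadjusted p under 0.05. Besides A_73_P261821 these were A_73_105187 and A_73_120401, whose breed difference lay in blood, at 2.28 and 3.29, and was -0.13 and -0.20 in MFG. Within a single source the same limma test called 0 probes between breeds in milk somatic cells, with 1200 (4.38%) at an unadjusted p under 0.05, and 3 in blood (0.011%), with 967 (3.53%). Across probes, the breed difference in MFG correlated with r = 0.17 with that in milk somatic cells and r = 0.07 with that in blood, over 27258 probes of the same goats.

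Beyond the 4 calls, larger differences were few. Differences of at least 2-fold were measured for 206 probes (0.754% of those tested), 80 of them above (0.293%) and 126 below (0.461%) PFI in PWI. Differences of at least 4-fold were measured for 10 (0.0366%), with 7 above and 3 below. The 4 goats of one breed lay wholly on one side of the other 4 in 2275 probes, 8.33% of those tested. Of these, 467 were higher (1.71% of those tested) and 1808 lower (6.62%) in PWI. Both conditions held for 100 probes, 18 higher and 82 lower. Without PWI goat 2 the split of that set turned to 62 higher and 38 lower of 27203 tested, and without goats 2 and 4 to 63 and 30 of 25914. The lower set was thus the larger with all 8 goats and the smaller once PWI goat 2 was left out.

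A list of 10 accessions in each direction was drawn from this set by the smallest unadjusted p, with the brighter breed well above background on all 4 arrays. The 10 higher accessions differed by 1.01 to 3.19 and the 10 lower by -2.76 to -1.03. Of these, 1 higher and 2 lower accessions are those called above, and the rest had limma adjusted p of 0.0820 to 0.543 on the higher side and 0.0618 to 0.166 on the lower. The largest difference of this list on the higher side, which was not called, belonged to NM_001102010, probe A_73_P048836. Its log2 ratios were 0.95, 1.96, 1.63 and 1.51 in PWI, and -2.08 and -1.28 in the only PFI goats whose spot was kept. The difference was 3.19 (SE 0.33, limma adjusted p = 0.0921, n = 4 and 2). The other 2 PFI spots carried a background flag, and with flagged spots kept they read 1.18 and 1.03, the difference fell to 1.76 (SE 0.71) and its limma adjusted p was 0.530. The net Cy5 of these 2 flagged spots, 110203 and 108813, lay within the PWI range of 95230.5 to 131286, and the kept PFI spots read 3352 and 7089.5. In Cy3 the shared reference read 18084.5 to 23720.5 on the PWI arrays and 10581.5 and 10411 in the kept PFI spots.

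Probes of one accession can be read against each other. The 52 lower probes of this set that share an accession with other tested probes had 87 such partners, and 84 of them were also lower in PWI, where 70.8% of all probes with a partner were lower. The 11 higher probes with partners had 21, of which 17 were also higher. The set was chosen by the breed difference on these arrays, and the partners read the same RNA on the same slides. Their agreement therefore cannot tell breed from slide. Of 2618 accessions with at least 3 tested probes, all probes were lower in PWI at an unadjusted p under 0.05 in 29 and higher in 6. Without PWI goat 2 these counts were 25 and 16 of 2600. In the other sources, 80.2% of 81 lower probes and 72.2% of the 18 higher probes had the same sign in milk somatic cells, against 53.7% of all 27258, and 60.5% and 61.1% in blood against 47.7%. At least 2-fold in the same direction, 3 of the 18 higher probes were so in milk somatic cells, 3 in blood and 2 in both, and of the 81 lower probes 1, 0 and 0.

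The breed difference varied with the level of the ratio and between single goats. The median breed difference was 0.18 in probes with a mean log2 ratio below -3, -0.07 between -1 and 0, -0.49 between 2 and 3 and -0.47 above 3. The median thus lay below 0 for transcripts far above the blood reference and above 0 for those far below it. PWI goat 2 deviated from the PFI mean by a median of -1.71 in probes with a ratio above 3 and by -1.20 between 1 and 2. PWI goat 4 deviated by -0.38 in both ranges, and PWI goats 1 and 3 by 0.11 and 0.00 above 3. Of 16095 probes well above background on all 8 arrays and kept in PWI goat 2, 4817 (29.9%) lay at least 2-fold below the lowest PFI goat and 233 at least 2-fold above the highest. In PWI goats 1, 3 and 4 the counts below were 35, 36 and 178, and those above were 218, 82 and 113. These shifts ran alongside the low slopes and high shares well above background of PWI goats 2 and 4, and the part of those measures in the breed difference was not tested.

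**Figure D5:**
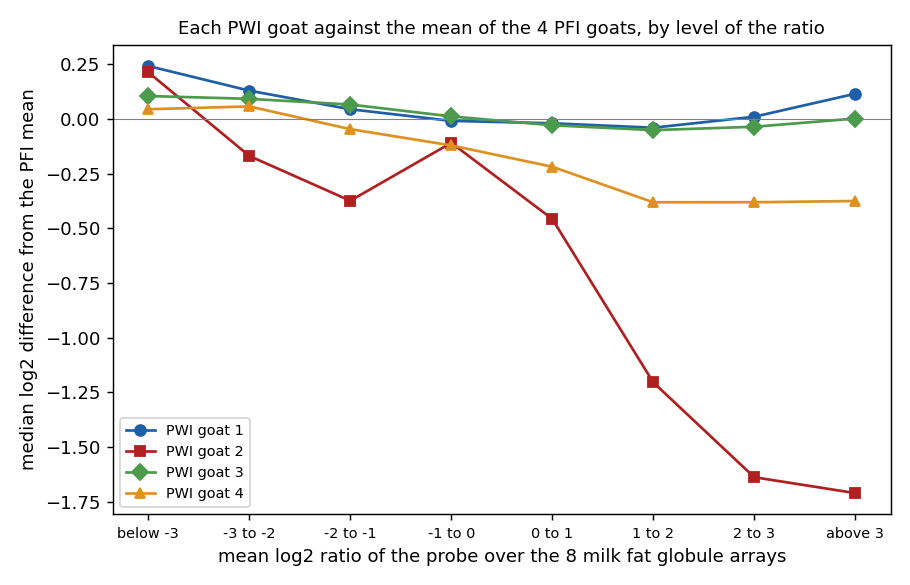
Median log2 difference of each PWI goat from the mean of the 4 PFI goats (y axis) for probes in 8 ranges of mean log2 ratio over the milk fat globule arrays (x axis). PWI goat 2 falls to -1.71 above a ratio of 3, PWI goat 4 to -0.38, and PWI goats 1 and 3 stay within 0.25 of 0.

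One side of the pattern by level was present without these goats. Among 1364 probes with a mean log2 ratio below -2, 152 were higher and 15 lower in PWI at an unadjusted limma p under 0.05. The counts were 195 and 13 of 1357 without PWI goat 2, and 156 and 10 of 1280 without goats 2 and 4. Among 2884 probes with a ratio above 1 the counts were 20 higher and 381 lower with all goats. They were 69 and 413 of 2867 without PWI goat 2, and 121 and 202 of 2727 without goats 2 and 4. Over all 25914 probes tested without goats 2 and 4 the unadjusted counts were 780 higher and 822 lower, and the median difference was 0.0051. Leaving out these goats moved the split from mostly lower to near equal numbers.

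Few probes were flagged as detected in one breed alone. Of 43653 probes, 50 were well above background in Cy5 on all 4 PWI arrays and no PFI array, and 6 on all 4 PFI arrays and no PWI array. None of the tested probes among them differed 2-fold. The high shares well above background in PWI goats 2 and 4, 84.6% and 75.3%, left few probes that could count as detected in PFI alone. The probes of NM_001079789, well above background on all 4 PFI arrays, missed that count through the arrays of PWI goats 2 and 4. Detection on each of the 8 arrays held for 16521 probes (37.8%).

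The reference channel gives the background of the comparison, because the same RNA was on both slides. In Cy3 limma called 0 of 27313 probes between the slide of PWI and that of PFI, with 1275 (4.67%) at an unadjusted p under 0.05. With unadjusted p, limma found 214 with median centring in place of quantile normalization and 622 to 2799 without 1 goat. For 80.6% of the tested probes the 95% interval excluded a breed difference of 2-fold or more in the measured ratio, and for 96.4% without PWI goat 2. Among the 16438 tested probes well above background on each of the 8 arrays the share was 73.1%, and 95.2% without PWI goat 2. For the remaining probes these 8 arrays do not bound the measured difference within 2-fold. These shares concern measured ratios, not RNA levels. The offset of the background correction pulls the ratios of dim probes together. The median SE was 0.164 over all tested probes and 0.199 among the 16438. With spike-in slopes of 0.489 to 0.887 on these arrays, the log ratios of the controls were measured as smaller than expected. A 2-fold difference in RNA is therefore not excluded by these intervals.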

How the data were processed

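RNA of 24 samples was hybridised to cattle arrays, and the 8 MFG arrays carry the comparison. The authors deposited scanner output with the median intensity of each spot and of its local background for Cy5 and Cy3. The submitters' processing notes name Agilent Feature Extraction 10.7.3.1. Other columns, flags per spot, were deposited by the authors as set by the same software. A table deposited by the authors gives log10 of the ratio, Cy5 to Cy3, with the same values as the scanner software (largest difference 0), and serves as an alternative. The software's processed signal is background subtracted and dye normalized per the file headers.

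From the intensities, R 4.3.3 and limma 3.58.1 were used. Spots with an outlier flag, 2.22% to 3.53% of an MFG array, were removed. Background correction was by normexp (offset 50), ratios were normalized by loess with controls at weight 0, and spots of a probe were averaged. The order of these steps was kept from earlier work on these data, when it was known that the other order gave no calls. Of 43653 probes, 27411 passed the filter, with Cy5 well above background throughout the 4 arrays of 1 or more of the 6 groups. Of these 98 lacked 2 values per breed, which left 27313 of 16799 accessions. No spot was saturated. Breeds were compared by lmFit and eBayes on 8 arrays, sources by an interaction on 24 arrays, array measures by exact permutation, and p-values adjusted by Benjamini-Hochberg. The fits were tested on simulated data.

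Probes were named if called, if of the same accession, or if among the 10 with the smallest unadjusted p in each direction that differed 2-fold without overlap, were well above background on the brighter breed's 4 arrays and were 1 per accession; at most 2 accessions a direction are printed. The gene and marker lists of the design (caseins, whey proteins and lactose synthesis, fat globule membrane, fatty acid and triglyceride synthesis, hormone signalling, epithelial, leukocyte and erythroid markers, innate defence, antigen presentation, interferon response, heat shock, pigmentation, ribosomal proteins) could not be applied, since 0 of 26748 accessions matched the goat table (assembly ARS1.2). The members and lists were chosen with earlier results of these data known. Samples are separate goats, with 1 array each, and the number of arrays limits the precision. The 4 arrays of each MFG slide were scanned on 1 day. Equal goat numbers in the 2 breeds stand for different goats and do not pair them. That a goat is the same across sources rests on the number in the sample titles.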

Additional observations from a re-analysis of the deposited data

Results flagged for a closer look

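In the blood samples of PWI, probe A_73_P096351 (NM_001079789) had one value far below the others, -1.82 in goat 3 with the next at -0.11. The net Cy3 intensity of that spot was 218.5 against 39.5 to 41.5 on the other 3 arrays, and its Cy5 signal was not well above background. In the blood samples of PFI, A_73_P118486 (X64897) had one value far above the others, 1.06 in goat 2 with the next at 0.23. Of 51 groups of 4 values examined for the named probes, 2 had such a value, where chance gives about 2.55. The breed difference of A_73_P261821 (NM_001079789) in MFG differed from that in blood by -2.25 (limma adjusted p = 0.00437). This probe was not well above background on any blood array, so its blood difference of 0.11 is one between signals near background.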

How the results depend on the processing

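The 4 calls between breeds in MFG became 0 with the background fitted on all spots, 0 with flagged spots kept throughout, and 0 with only background flags ignored, an alternative chosen after seeing the data. At an unadjusted p under 0.05 the limma counts were then 653, 668 and 763. In these fits the lowest fitted background mean was -391, and 3 MFG arrays had means more than 50 below 0, against a lowest mean of -4.98 in the order used. Fitted on unflagged spots with flagged spots kept, also added later, 6 were called, all 4 among them. Median centring gave 2, Cy5 alone 1, the filter on all 8 MFG arrays 1, array weights 36, the fit of all 24 arrays 41, and the fit without PWI goats 2 and 4 gave 8. Added later, ratios scaled to a common slope gave 2, and the same without PWI goat 2 gave 19. Leaving out 1 goat gave 1 to 28 calls, the most without PWI goat 2. With the goat number as a replicate block 0 were called, with 2326 at an unadjusted p under 0.05. The correlation of same-numbered goats was 0.01 to 0.16, and only goat 3 correlated best with its own number, so the pairing is one of number alone. The scanner's ratios, the deposited table, centring, no filter, no background correction, the MFG filter and averaged accessions gave 4 to 6 calls, but of the 6 with the scanner's ratios or the deposited table only A_73_P096351 and A_73_107408 were among the 4.

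The difference of breed effects between MFG and milk somatic cells (0 calls) gave 1 with the background fitted on all spots, 1 with the scanner's ratios, 4 with array weights and 0 to 1 without 1 goat. That between MFG and blood (3 calls) gave 0, 7, 47 and 2 to 5, and with goat as a random block both were as before, at 0 and 3. The consensus correlation of a goat over the sources was 0.027, so the values show little of a goat effect across them. The reference channel gave 0 to 1 without 1 goat. The direction of the 4 called probes and of A_73_117639 held in every alternative that gave them a value. A_73_P096351 missed the threshold in 5 of 27, A_73_P261821 in 12 of 27, A_73_107408 in 10 of 28 and A_73_P118486 in 15 of 27, with adjusted p up to 0.938. The difference of A_73_P437651 changed sign to -0.29 with the background fitted on all spots and with flagged spots kept, -0.20 with background flags ignored, -0.058 with Cy5 alone, -0.064 with array weights, -0.093 without PWI goats 2 and 4, -0.30 with scaled ratios, -0.25 with these and without PWI goat 2, and -0.082 to 0.097 without 1 goat. The slide, and dim signals near background in PWI, limit what the 8 arrays can show.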
